A study of Mus musculus with 8 samples.

Results

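The regenerating (Reg) proteins are a family of small secreted lectin-like proteins, and the mouse genes Reg1, Reg2, Reg3a, Reg3b, Reg3d, Reg3g and Reg4 were followed here in the pancreata of NOD and NOD.B10 mice. A probe was taken as a member when its array symbol was one of these names or an older name of the same gene, which gave 7 genes of 21597 gene symbols on the array, each with 1 probe and 1 spot. Reg3b is listed on the array under its older name Pap. Of the 7 genes, 6 passed the filter on low signal and Reg4 did not.

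The pancreas of each of 8 female NOD mice, 12 weeks old, was labeled with Cy5 (red) and run on its own two-color array against Cy3-labeled (green) RNA from 1 pool of 8 NOD.B10 pancreata of the same age. NOD mice develop autoimmune insulitis and diabetes, and NOD.B10 mice are the congenic control strain that carries another MHC and is spared diabetes. No mouse received an agent. Whole pancreas was used, and the pool is a single RNA sample, so the spread between NOD.B10 mice was not measured, and as the dyes were never swapped, strain and dye cannot be told apart. In RNA from whole tissue, fewer cells of a type and less RNA per cell cannot be told apart either.

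Reg proteins are made mainly by acinar cells of the exocrine pancreas and by gut epithelium, at low levels in the resting organ for several members, and are induced when the pancreas is inflamed or injured. Interleukin-6, interleukin-22 and related cytokines acting through Stat3 are known inducers. Reg1 was first found in regenerating islets, and Reg proteins are known as growth factors for islet and acinar cells, while the Reg3 members also bind bacterial cell walls.

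Of the 7 genes, 6 lie side by side on chromosome 6. On mm8, the build of the array files, their probes map in the order Reg3b (chr6:78302838-78302897), Reg3d (chr6:78305521-78305580, minus strand), Reg3a (chr6:78313150-78313209), Reg2 (chr6:78337474-78337533), Reg1 (chr6:78358042-78358101) and Reg3g (chr6:78395935-78395994, minus strand). Reg4 stands apart on chromosome 3, and its probe spans chr3:98318487-98321733, so it crosses at least 1 intron. Annotation of mm8 was not used here, so the exon of each probe is not given. In GENCODE transcripts (GRCm38) of the RefSeq entries that the probes were designed on, coding sequences were 82.5% identical between Reg1 and Reg2, 76.4% between Reg3b and Reg3g and 74.7% between Reg3a and Reg3b. The longest run of identical bases shared by any pair of the 7 transcripts was 35 bases, between Reg3b and Reg3g, against a probe length of 60 bases. The share of each spot's signal that came from a related gene was not tested.

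Promoters of 4 members are shown because they cover both ends of the range, from Reg2, Reg3a and Reg3b with the most negative mean ratios to Reg1 with the least negative one. Each runs from 250 bases before to 50 bases after the gene start in RefSeq (GRCm38.p6), 5′ to 3′ on the plus strand, at chr6:78404905-78405204 for Reg2, chr6:78380459-78380758 for Reg3a, chr6:78370635-78370934 for Reg3b and chr6:78425733-78426032 for Reg1. Capitals mark matches on either strand to TATAAA (the core promoter element), to CACCTG (an E-box of the kind that acinar bHLH factors bind) and to TTCNNNGAA (a STAT-type palindrome).
Reg2: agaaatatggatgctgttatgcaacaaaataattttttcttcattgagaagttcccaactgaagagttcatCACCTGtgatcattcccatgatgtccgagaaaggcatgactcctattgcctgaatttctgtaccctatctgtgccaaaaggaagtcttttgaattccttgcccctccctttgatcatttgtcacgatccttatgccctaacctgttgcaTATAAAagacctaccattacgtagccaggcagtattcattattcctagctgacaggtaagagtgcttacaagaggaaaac
Reg3a: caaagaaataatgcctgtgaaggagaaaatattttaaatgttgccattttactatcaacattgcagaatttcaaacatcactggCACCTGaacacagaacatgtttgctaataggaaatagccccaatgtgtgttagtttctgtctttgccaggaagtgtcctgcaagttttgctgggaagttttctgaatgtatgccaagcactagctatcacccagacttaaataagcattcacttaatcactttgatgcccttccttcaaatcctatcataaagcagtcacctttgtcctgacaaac
Reg3b: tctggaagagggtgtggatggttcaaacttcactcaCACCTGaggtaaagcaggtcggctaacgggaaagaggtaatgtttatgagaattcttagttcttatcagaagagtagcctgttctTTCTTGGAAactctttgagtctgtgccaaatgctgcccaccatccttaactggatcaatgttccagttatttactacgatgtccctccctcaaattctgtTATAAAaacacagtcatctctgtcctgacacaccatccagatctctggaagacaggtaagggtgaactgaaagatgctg
Reg1: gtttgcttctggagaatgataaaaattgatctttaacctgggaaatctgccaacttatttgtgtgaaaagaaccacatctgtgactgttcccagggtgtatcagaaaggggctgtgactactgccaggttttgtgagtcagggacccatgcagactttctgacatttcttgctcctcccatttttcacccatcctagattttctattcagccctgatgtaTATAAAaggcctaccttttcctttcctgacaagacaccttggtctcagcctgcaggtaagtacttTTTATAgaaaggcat

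Among the 7 Reg promoters, TATAAA was found in 4 (Reg1, Reg2, Reg3b and Reg3g), against 13.6% of 32544 mouse promoters of the same length. Its first base lay 30 bases before the start in Reg1 and Reg2, 29 in Reg3b and 27 in Reg3g. CACCTG was found in 5 (Reg2, Reg3a, Reg3b, Reg3d and Reg4), against 20.3% of promoters. TTCNNNGAA was found in 2 (Reg3b and Reg3d), against 8.33% of promoters. The match in Reg3b began 129 bases before the start. Both the printed Reg2 and Reg3a promoters carry an E-box and no STAT-type palindrome, while Reg1 carries neither. No match of one motif overlapped a match of another. These are matches of letters, and binding was not measured.

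Across the family, 1 of 6 tested genes, Reg3a, passed the test for lower expression in NOD pancreata (a change of 2-fold or more with a limma p, Benjamini-Hochberg adjusted over 28105 probes, below 0.01), against 1.41% of all probes tested (397 probes), and 0 passed as higher, against 0.31% of probes. Mean log2 ratios of NOD over pool were below 0 for all 6, except that Reg1 stood at 0.40 with normexp and loess. In 4 genes (Reg2, Reg3a, Reg3b and Reg3d) every mouse stood below the pool in the deposited ratios, a pattern seen in 9.4% of all probes. With normexp and loess mouse 1 stood above it for Reg2 (0.68), Reg3b (0.29) and Reg3d (0.31), and mouse 3 for Reg3d (0.13). The count of genes passing depended on the processing. It was 4 (Reg2, Reg3a, Reg3b and Reg3g) when only probes with red signal well above background on at least 4 arrays were tested (where 0.347% of probes passed as lower and 0.752% as higher), or with median-centered signals (where 4.53% of probes passed as lower and 21.3% as higher). On either slide alone it was 0, and with 4 arrays almost no probe passed (0 of 28105 on slide 1, and 1 lower and 2 higher on slide 2), so that count says nothing of the Reg genes.

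**Figure D1:**
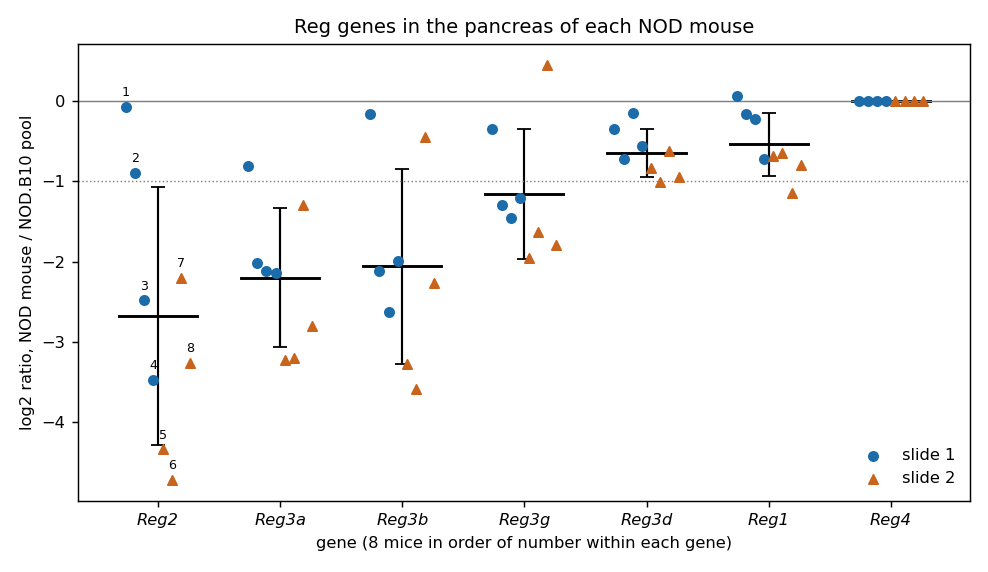
The plot shows the log2 ratio of each NOD mouse over the NOD.B10 pool for the 7 Reg genes, with circles for slide 1 (mice 1 to 4), triangles for slide 2 (mice 5 to 8), a bar at the mean and whiskers of 1 SD (n = 8). Mouse numbers stand beside the Reg2 points, the dotted line marks a 2-fold decrease, and mice 1 and 7 are the highest for Reg3a, Reg3b and Reg3g.

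Reg3b encodes pancreatitis-associated protein, which acinar cells secrete in pancreatitis. Its log2 ratio was -0.16, -2.12, -2.62 and -1.99 in mice 1 to 4 and -3.27, -3.59, -0.45 and -2.27 in mice 5 to 8. Mice 1 and 7 had the highest values, at 89.5% and 73.3% of the pool, and the other 6 stood at 25.2% or below. With median-centered signals mouse 7 was at -1.54, and with normexp and loess at -0.91, still the second highest. The mean was -2.06 ± 1.22 (SD, n = 8), 4.16-fold below the pool. This missed the threshold in limma (adjusted p = 0.0133), and all 8 mice were below 0 (exact sign-flip test, two-sided, p = 0.0078, the smallest that 8 arrays allow).

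Reg3a, another lectin of pancreas and gut, fell in NOD pancreata. Its log2 ratio was -0.81, -2.01, -2.12 and -2.15 in mice 1 to 4 and -3.23, -3.20, -1.30 and -2.80 in mice 5 to 8. As with Reg3b, mice 1 and 7 had the highest values and mice 5 and 6 the lowest, and 7 of 8 mice stood at least 2-fold below the pool. The mean was -2.20 ± 0.86 (SD, n = 8), 4.60-fold below the pool (limma adjusted p = 0.0031, exact sign-flip p = 0.0078). The call was lost without mouse 3 (adjusted p = 0.0104) or mouse 4 (adjusted p = 0.0108), with means of -2.21 in both cases, and on the 5 arrays whose grids the software rated as good (mean -1.98, adjusted p = 0.0289). Over all alternatives the mean lay between -2.63 and -1.77.

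Reg3g, which encodes a lectin that kills Gram-positive bacteria in the gut, had much weaker signals on its probe. Its log2 ratio was -0.35, -1.29, -1.46 and -1.20 in mice 1 to 4 and -1.95, -1.62, 0.46 and -1.79 in mice 5 to 8. In mouse 5, which had the lowest ratio, the red signal was not well above background, and with normexp and loess its ratio was -0.57. Mouse 7 alone stood above the pool, at 137% of its level, with a processed red signal of 1776 against 302 to 1018 in the other 7 mice. The mean was -1.15 ± 0.81 (SD, n = 8), with an adjusted p of 0.0249 in limma, an exact sign-flip p of 0.0234 and 7 of 8 mice below 0. Without mouse 7 the mean was -1.38 and passed the test (adjusted p = 0.0070). With normexp and loess the mean of all 8 was -0.64 (limma adjusted p = 0.0159).

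Reg3d, a pancreatic member also known as the islet neogenesis related protein, had the smallest SD of the deposited ratios. Its log2 ratio was -0.34, -0.72, -0.15 and -0.55 in mice 1 to 4 and -0.83, -1.01, -0.62 and -0.95 in mice 5 to 8. Every mouse stood below the pool, but only mouse 6 by 2-fold. The mean was -0.65 ± 0.30 (SD, n = 8), 1.56-fold below the pool. Its adjusted p in limma was 0.0054 (exact sign-flip p = 0.0078), so Reg3d passed the limit on p, as 4.4% of all probes did in this direction, and not the limit on fold. The pass on p was lost with normexp and loess (mean -0.41, adjusted p = 0.11), with median-centered signals (0.0104), with the plain statistic (0.0102), on slide 1 or slide 2 alone (0.0926 and 0.0521), on the arrays with good grids (0.0698) and in 7 of 8 limma fits that left out 1 mouse (highest adjusted p = 0.0174, without mouse 2); without mouse 3 it was 0.0056.

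The type I members Reg1 and Reg2 are the closest pair in coding sequence, and both probes were bright. Reg2 had the widest range of the family. Its log2 ratio was -0.07, -0.90, -2.48 and -3.47 in mice 1 to 4 and -4.34, -4.72, -2.20 and -3.26 in mice 5 to 8. In percent of the pool, mouse 1 stood at 95.0% and mouse 6 at 3.78%, with a median of 13.7%. The mean was -2.68 ± 1.61 (SD, n = 8), 6.42-fold below the pool, with an adjusted p of 0.0140 in limma that missed the threshold. All 8 mice were below 0 (exact sign-flip p = 0.0078).

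Reg1, the founding member of the family, stayed nearest to the pool. Its log2 ratio was 0.07, -0.16, -0.22 and -0.71 in mice 1 to 4 and -0.68, -0.65, -1.15 and -0.80 in mice 5 to 8. Mouse 7, among the highest for Reg3a, Reg3b and Reg3g, was the lowest here. The mean was -0.54 ± 0.40 (SD, n = 8), with an adjusted p of 0.0300 in limma, an exact sign-flip p of 0.0156 and 7 of 8 mice below 0. With normexp background correction and loess the sign of Reg1 turned, to 0.40 (adjusted p = 0.18), and with median-centered signals the mean was -0.25 (limma adjusted p = 0.35).

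Reg4, a member known from gut endocrine cells, was not detectable at this signal. Neither dye was well above background on any of the 8 arrays, the red value was a stand-in for a failed estimate on 8 arrays and the green value on 6, and the ratio was listed at 0 in every mouse. A difference in Reg4 could not be measured.

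All 15 pairs of the 6 detected genes were then compared within each mouse by exact sign flips and adjusted together, a test added after the values were seen. An adjusted p of 0.05 was passed by 5 pairs. Reg2 stood below Reg1 in 8 of 8 mice, by 2.14 ± 1.40 (SD) on the log2 scale (exact p = 0.0078, adjusted p = 0.0293). Reg3a stood below Reg3d by 1.55 ± 0.70, below Reg1 by 1.66 ± 0.82 and below Reg3g by 1.05 ± 0.46, each in 8 of 8 mice (exact p = 0.0078, adjusted p = 0.0293). Reg3b stood below Reg3g in 7 of 8 mice, by 0.91 ± 0.63 (exact p = 0.0156, adjusted p = 0.0469). The other 10 pairs did not pass. Among them Reg2 against Reg3d (2.04 ± 1.46) and Reg3b against Reg1 (1.52 ± 1.24) had an adjusted p of 0.0502 in the exact test. Neighbours in the order of means that missed the threshold were Reg2 and Reg3a (0.48 ± 0.96, exact adjusted p = 0.23), Reg3a and Reg3b (0.14 ± 0.49, 0.42), Reg3g and Reg3d (0.51 ± 0.75, 0.13) and Reg3d and Reg1 (0.11 ± 0.35, 0.42).

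The signals of each dye show where the spread lay. Red signals of the NOD mice ranged over 11.3-fold for Reg2 (11270 to 127241), 8.40-fold for Reg3b (10272 to 86238), 5.89-fold for Reg3g (302 to 1776) and 5.63-fold for Reg3a (4306 to 24257), in processed units of the array. Green signals of the shared pool ranged over 2.22-fold, 1.52-fold, 1.57-fold and 1.37-fold for the same probes. For Reg1 and Reg3d the red ranges were 1.89-fold and 2.07-fold and the green ranges 1.42-fold and 1.56-fold. In background-subtracted signals, Reg1 ranged over 3.25-fold in red and 1.25-fold in green, and Reg3d over 4.25-fold and 1.34-fold. In those signals Reg2, Reg3b, Reg3g and Reg3a ranged over 12.5-fold, 11.1-fold, 7.93-fold and 9.45-fold in red. Their green ranges were 2.19-fold, 1.33-fold, 1.27-fold and 1.17-fold. Red holds 8 mice and green 8 measurements of 1 RNA. With 1 array per mouse, the difference between animals and that between arrays in red cannot be told apart. Signals are not comparable between genes, since probes differ in how they bind. No Reg spot was flagged as saturated in either dye.

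The green signal of Reg2 did not vary freely. It was lowest in the array of mouse 1 (133905), where red was highest, and highest in the arrays of mice 5 and 6 (295773 and 297802), where red was lowest. Over the 8 arrays, Pearson's r between the log2 processed signals of both dyes was -0.89 (exact permutation p = 0.0037, adjusted over 12 relations p = 0.0225) and Spearman's rho was -0.86 (p = 0.0107). Without the 2 arrays farthest from the red median r was -0.69, and with slide means subtracted it was -0.83. In background-subtracted signals, before dye normalization, r was -0.93 (exact permutation adjusted p = 0.0048). No other Reg gene passed an adjusted p of 0.05 in either kind of signal. For Reg3b, r was -0.42 in processed signals and -0.69 in background-subtracted signals (exact permutation adjusted p = 0.60 and 0.18). With slide means subtracted, these were -0.59 and -0.92. These relations were computed after the values were seen.

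**Figure D2:**
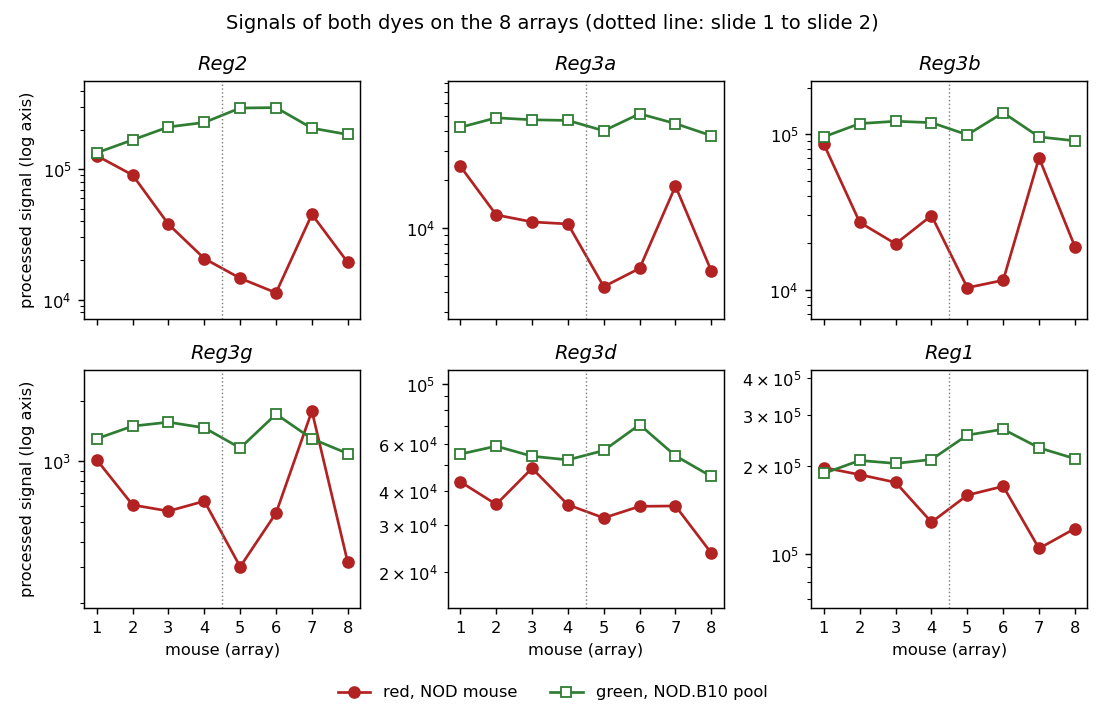
The panels show processed signals on a log axis for the 6 detected Reg genes, with filled circles for red (the NOD mouse), open squares for green (the NOD.B10 pool) and a dotted line between the 2 slides. Red falls well below green in most mice for Reg2, Reg3a and Reg3b, mouse 7 crosses above green for Reg3g, and the green line of Reg2 runs opposite to its red line.

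Ratios of Reg3a, Reg3b and Reg3g ran together across mice. Over 15 pairs of the 6 detected genes, with exact permutation of the pairings and adjustment over the pairs, 4 passed an adjusted p of 0.05 for Pearson's r. The share of pairs of other genes that would pass on these arrays was not computed. Among the 6182 other genes compared below, some were closer to Reg2 and Reg3g than any Reg gene was (highest r = 0.96 and 0.94). None was closer to Reg3a or Reg3b than these are to each other (highest r = 0.88 and 0.90). Reg3a and Reg3b had r = 0.94 (p = 9.4e-04, adjusted p = 0.0141) and rho = 0.86 (p = 0.0107, adjusted p = 0.0402). Reg3b and Reg3g had r = 0.88 (p = 0.0056, adjusted p = 0.0223) and rho = 0.86 (p = 0.0107, adjusted p = 0.0402). Mice 1 and 7 form the upper end of both relations. Reg2 and Reg3a had r = 0.87 (p = 0.0060, adjusted p = 0.0223) and rho = 0.93 (p = 0.0022, adjusted p = 0.0335). Reg3a and Reg3g had r = 0.85 (p = 0.0042, adjusted p = 0.0223) and rho = 0.88 (p = 0.0072, adjusted p = 0.0402). Reg2 and Reg3b missed the threshold (r = 0.78, exact permutation adjusted p = 0.0695; rho = 0.79, adjusted p = 0.0838).

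Without the 2 mice farthest from the median of the first gene, r was 0.89 for Reg3a and Reg3b, 0.63 for Reg3b and Reg3g, 0.90 for Reg2 and Reg3a and 0.83 for Reg3a and Reg3g. With slide means subtracted, the values were 0.97, 0.90, 0.81 and 0.95. Within slide 1 they were 0.97, 0.998, 0.78 and 0.97, and within slide 2 they were 0.98, 0.90, 0.93 and 0.97, each over 4 mice. The relation of Reg3b and Reg3g was thus the one that leaned most on the outermost mice. Reg3d passed with none of them, with r = 0.68 for Reg3a, 0.47 for Reg3b and 0.39 for Reg3g (exact permutation adjusted p = 0.16, 0.32 and 0.43), with 0.22, 0.04 and 0.10 within slide 1 and 0.86, 0.84 and 0.85 within slide 2. For Reg1, r was 0.33 with Reg3a, 0.10 with Reg3b and -0.13 with Reg3g (exact permutation adjusted p = 0.49, 0.79 and 0.79). On slide 2, Reg1 ran opposite to Reg3a and Reg3b (r = -0.996 and -0.991), and on slide 1 it did not (0.70 and 0.52), over 4 mice each.

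**Figure D3:**
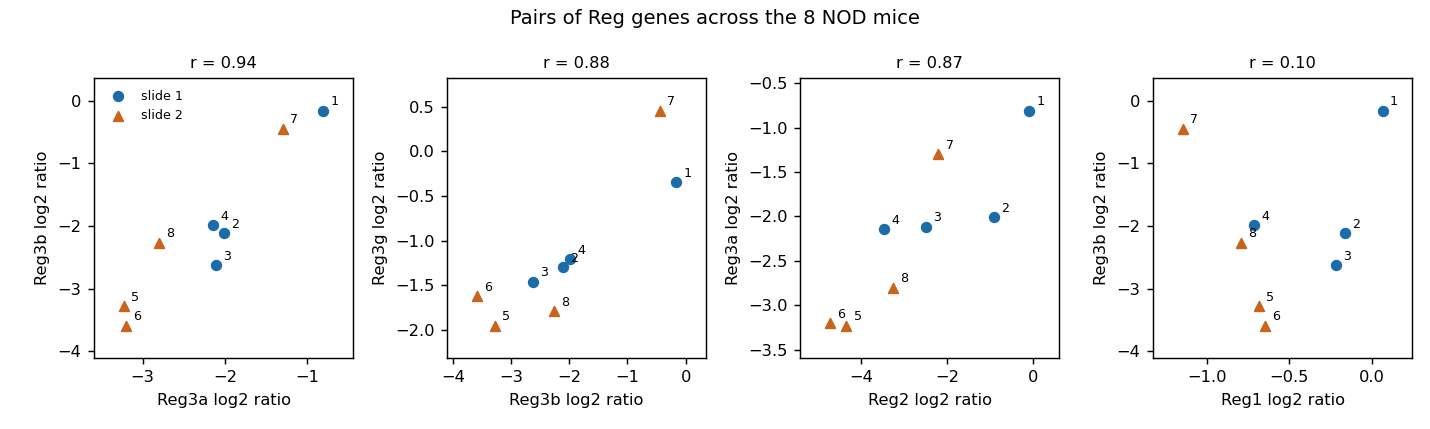
The 4 panels plot the log2 ratio of one Reg gene against another, with 1 point per mouse, mouse numbers beside the points, circles for slide 1 and triangles for slide 2. Reg3a with Reg3b, Reg3b with Reg3g and Reg2 with Reg3a rise together, and Reg1 with Reg3b (r = 0.10) does not.

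By slide, mean log2 ratios were more negative on slide 2 for all 6 genes (for Reg3g not with normexp and loess, where slide 2 minus slide 1 was 0.11), and the difference passed no test. Slide means (slide 1 and slide 2) were -1.73 and -3.63 for Reg2, -1.77 and -2.63 for Reg3a, and -1.72 and -2.39 for Reg3b. They were -1.08 and -1.23 for Reg3g, -0.44 and -0.85 for Reg3d, and -0.26 and -0.82 for Reg1. The slides overlapped in every gene but were nearest to separation in Reg3d (exact permutation of 4 against 4, p = 0.0571) and Reg1 (p = 0.0857), where the smallest p possible is 0.0286. In limma, adjusted p ran from 0.17 to 0.95, and 0 of 6 genes passed 0.05, against 1.59% of all probes lower and 1.67% higher on slide 2. At an unadjusted p under 0.05, limma gave 2 genes (Reg1, p = 0.0223, and Reg3d, p = 0.0268), both lower on slide 2, as were 9.54% of all probes at that p, and the exact test gave none.

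Per array, between 21.6% and 35.3% of spots had red signal well above background, and between 57.6% and 60.7% had such green signal. The grid was not rated as good on the arrays of mice 5, 6 and 7. The main test gave 397 probes lower and 87 higher, while median-centered signals gave 1272 lower and 5976 higher, so the split of calls by direction depended on the scaling. Over the tested probes together the median ratio (log2) was -0.09 as deposited, 0.09 with median-centered signals and -0.01 with normexp and loess.

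Since acinar cells make most Reg protein in the pancreas, the Reg genes were set beside acinar genes. Acinar marker genes stayed near the level of the pool in the deposited ratios. Their median was 0.47 with median-centered signals and 1.29 with normexp and loess. Of 9 markers 0 passed the limma test in either direction (3 had an unadjusted p under 0.05, all above 0), with a median of 0.09 against -0.08 over 18340 tested genes. Of all tested genes, 58.8% had a mean ratio below 0, and an unadjusted p under 0.05 was reached by 25% below 0 and 10.9% above 0, shares against which the counts of each list stand. Of the 9 markers 1 had a mean below 0. Nearest to 0 were the trypsinogen Prss2 (0.05 ± 0.22, SD, n = 8), the amylase Amy2a5 (0.02 ± 0.17) and the carboxypeptidase Cpa1 (0.02 ± 0.24). Furthest from 0 were Ctrb1 and Pnlip, given below, and the lipase Cel (0.26 ± 0.33, adjusted p = 0.16). In the wider list of 26 acinar enzymes and regulators measured, 0 passed (at an unadjusted p under 0.05, 3 were below 0 and 6 above). Its median was 0.06, and 0.76 with normexp and loess. The members furthest from 0 with clear signal were the lipase-related Pnliprp1 (0.57 ± 0.17, adjusted p = 0.0013), the chymotrypsinogen Ctrb1 (0.54 ± 0.43, adjusted p = 0.0390) and the lipase Pnlip (0.45 ± 0.30, adjusted p = 0.0230). With normexp and loess these were 1.49, 1.87 and 1.85. Below 0 with an adjusted p under 0.01 were the zymogen granule protein Sycn (-0.33, but -0.013 with normexp and loess) and the acinar transcription factor Rbpjl (-0.41, but 0.25 with normexp and loess), named after their values were seen. All adjusted p are from limma.

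Within each array, each Reg gene was compared with the median of the 9 acinar markers. Mean log2 differences were -2.86 ± 1.75 (SD) for Reg2, -2.38 ± 0.98 for Reg3a, -2.23 ± 1.33 for Reg3b and -0.82 ± 0.42 for Reg3d, below 0 in 8 of 8 mice each (exact sign-flip p = 0.0078, adjusted over 6 genes p = 0.0117). They were -1.33 ± 0.86 for Reg3g and -0.71 ± 0.53 for Reg1, below 0 in 7 of 8 mice each (exact sign-flip adjusted p = 0.0156). With normexp and loess the acinar median itself moved from 0.09 to 1.29, and the Reg differences from it were -3.39 for Reg2, -3.05 for Reg3a, -3.15 for Reg3b, -1.76 for Reg3g, -1.53 for Reg3d and -0.73 for Reg1. Reg1, whose own sign turned under that scaling, was below the acinar median under both. The median over all tested probes was below it too, at -0.09 as deposited and -0.01 with normexp and loess. Standing below the acinar median is thus not particular to Reg genes, and the share of all genes below it was not computed. With normexp and loess the Reg1 mean (0.40) stood above the median over all tested probes. This comparison was added after the values were seen.

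**Figure D4:**
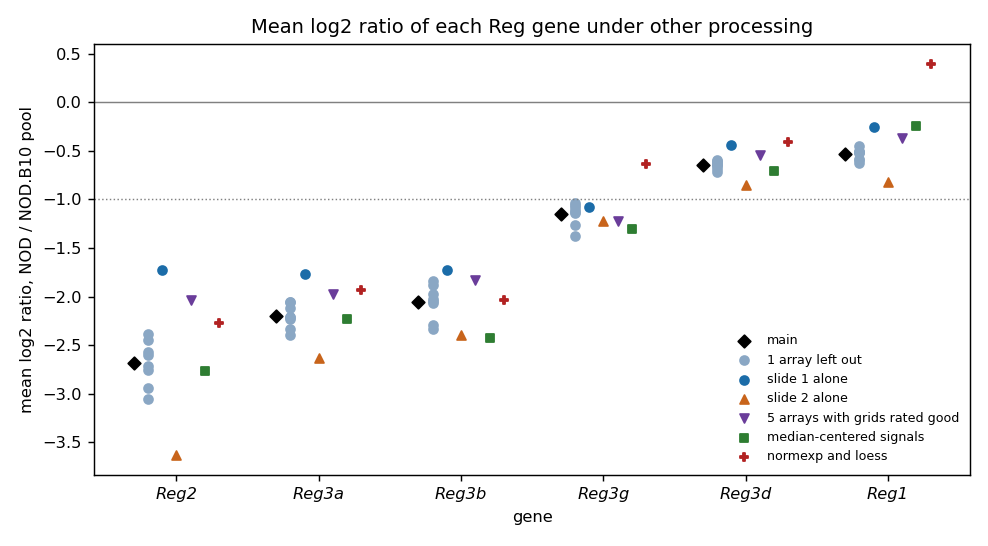
The plot shows the mean log2 ratio of each detected Reg gene in the main analysis (diamond), with 1 array left out (pale circles), on each slide, on the 5 arrays with grids rated as good, with median-centered signals and with normexp and loess. Reg2, Reg3a and Reg3b stay below the dotted line of a 2-fold decrease in all of these, and Reg1 lies above 0 with normexp and loess (0.40).

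The upstream side of the family was measured with 20 genes of the receptor and inducing cytokine axis, of which 18 passed the signal filter. Of these 0 passed the limma test (at an unadjusted p under 0.05, 5 were below 0 and 1 above), near the shares over all tested genes (25% and 10.9%), with a median of -0.18 (-0.06 with normexp and loess). Extl3, described as a Reg receptor, had a log2 ratio of -0.17 ± 0.11 (limma adjusted p = 0.0262), but -1.05 with median-centered signals and -0.89 with normexp and loess. The members furthest from 0 with clear signal were the interleukin-17 receptor chain Il17rc (-0.55 ± 0.35, adjusted p = 0.0189; -1.27 with median-centered signals), Stat3 itself (-0.39 ± 0.27, adjusted p = 0.0254) and the interleukin-6 receptor Il6ra (-0.36 ± 0.50, adjusted p = 0.18), whose sign turned with median-centered signals (0.17) and with normexp and loess (0.05). The kinase Tyk2, named after its values were seen, was the 1 member with an adjusted p under 0.01 (-0.83 ± 0.21, adjusted p = 7.8e-04), but its red signal was well above background on 0 arrays. With normexp and loess Tyk2 was at -0.13. For the cytokines Il6 and Il17a and the decoy receptor Il22ra2, neither dye was well above background on any array, so those were not measurable. The cytokine Il22 had red well above background on 0 arrays and green on 1, with a red stand-in on 8. Its receptor Il22ra1 had red well above background on 0 arrays, with slide means (slide 1 and slide 2) of -1.14 and 0.27. Il11 and Osm had green signal well above background on 8 arrays and red on 2 and 1. Their means were 0.45 ± 0.65 and -0.16 ± 0.68 (limma adjusted p = 0.20 and 0.66). With median-centered signals they were -0.15 and -0.97, and with normexp and loess 0.07 and -0.08.

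Of 16 Stat3 targets and acute phase genes of the injured pancreas, all of which were tested, 0 passed in limma (at an unadjusted p under 0.05, 5 were below 0 and 1 above, against 25% and 10.9% of all tested genes), with a median of -0.23 (-0.02 with normexp and loess). Haptoglobin (Hp) averaged -0.73 ± 0.50 (limma adjusted p = 0.0234; -0.28 with normexp and loess), the stress gene Nupr1 -0.52 ± 0.29 (adjusted p = 0.0104; but 0.15 with median-centered signals and 0.69 with normexp and loess) and the transcription factor Cebpd -0.48 ± 0.47 (adjusted p = 0.0679; -1.16 with median-centered signals). Of the list 9 genes had mean ratios below 0 and 7 above, against 58.8% of all tested genes below 0. Stat3's feedback inhibitor Socs3, a standard target, had a mean of -0.22 ± 0.42 (adjusted p = 0.32).

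Markers of other cell types are given beside these results. Of 10 tested beta cell markers 0 passed the limma test (5 had an unadjusted p under 0.05, all below 0, against 25% of all tested genes), and 9 were below 0, against 58.8%. The median was -0.64, and -0.12 with normexp and loess. Ins1 had a mean of -0.61 ± 1.04 (SD, n = 8), Nkx6-1 -0.75 ± 0.66 and Pcsk1 -0.40 ± 0.39. Slide means (slide 1 and slide 2) were -1.33 and 0.12 for Ins1, -0.72 and -0.08 for Pcsk1 and -0.43 and -1.07 for Nkx6-1. Nkx6-1 was at -1.48 with median-centered signals and -0.26 with normexp and loess, Ins1 at -1.04 and -0.87, and Pcsk1 at -0.46 and -0.22. The list's summed red signal ran from 46006 to 291967 and its summed green signal from 167401 to 211972. Of 15 leukocyte markers 0 passed (8 had an unadjusted p under 0.05, all above 0, against 10.9% of all tested genes), with a median of 0.61 and 3 below 0, against 58.8%. The kinase Lck had a mean of 2.30 ± 1.35, the leukocyte common antigen Ptprc 1.46 ± 0.98 and the B-cell receptor chain Cd79b 1.18 ± 1.39. With normexp and loess these were 0.26, 0.53 and 0.61, and the list median was 0.10. Summed red ran from 17802 to 43702 and summed green from 18972 to 33096. Of 10 duct markers 0 passed (2 had an unadjusted p under 0.05, both below 0, against 25%), with a median of -0.09 (-0.43 with median-centered signals), a summed red signal of 3622 to 6463 and a summed green signal of 3927 to 6202.

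Set against the Reg genes across the 8 mice, the median ratios of acinar, beta cell and leukocyte markers gave 18 relations, of which 0 passed an adjusted p of 0.05 (lowest 0.21). At an unadjusted p under 0.05 there were 4. Reg1 and Reg2 ran opposite to the beta cell median (r = -0.81, p = 0.0161, rho = -0.83, p = 0.0154; and r = -0.72, p = 0.0458, rho = -0.52, p = 0.20; exact permutation). Reg2 ran opposite to the acinar median (r = -0.74, p = 0.0391, rho = -0.67, p = 0.0831) and Reg3g with the leukocyte median (r = 0.74, p = 0.0427, rho = 0.66, p = 0.0850, exact permutation). Without the 2 mice farthest from the marker median, these r were -0.45, 0.11, -0.38 and -0.02 in the same order, over 6 mice and a narrower range of the markers. With slide means subtracted they were -0.72, -0.57, -0.50 and 0.75. Within slide 1 they were -0.93, -0.99, -0.58 and -0.90, and within slide 2 -0.17, 0.43, -0.45 and 0.97, so Reg2 with the beta cell median and Reg3g with the leukocyte median had opposite signs on the 2 slides. Mouse 7 had the highest leukocyte median (1.49) and the highest Reg3g ratio, and mouse 1 the lowest beta cell median (-1.13) and the highest Reg2 ratio. These relations were chosen after the values were seen, and the part of cell composition in the Reg ratios was not tested.

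**Figure D5:**
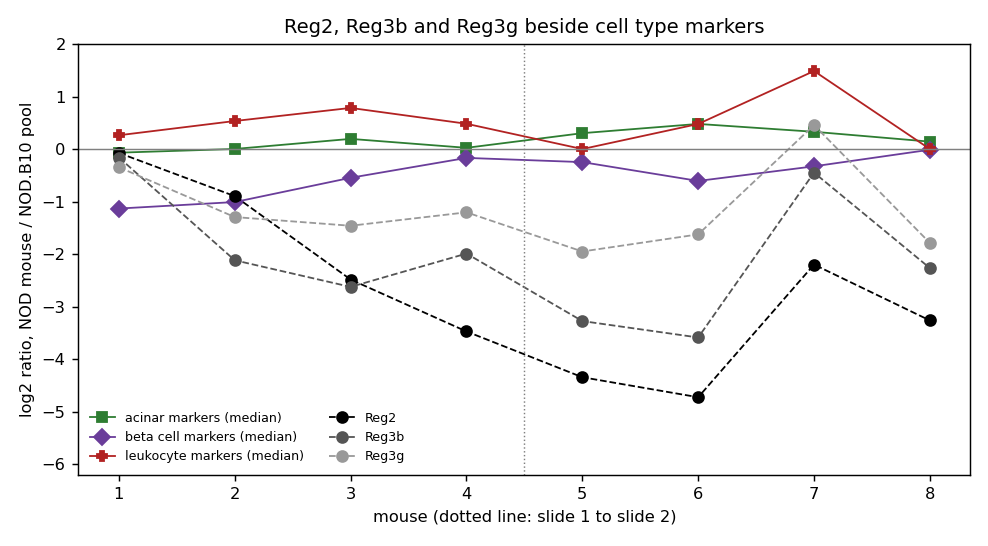
The plot shows by mouse the log2 ratio of Reg2, Reg3b and Reg3g (circles, dashed lines) and the median log2 ratio of the acinar (squares), beta cell (diamonds) and leukocyte markers (crosses), with a dotted line between the 2 slides. Acinar medians stay between -0.07 and 0.48 while Reg2 spans -0.07 to -4.72, and in mouse 7 the leukocyte median (1.49) and Reg3g (0.46) are at their highest.

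Gut epithelium also makes Reg3a, Reg3b, Reg3g and Reg4, so intestinal markers were examined. Of 18 on the array, 14 were tested and 2 passed as lower, villin (Vil1, -1.28 ± 0.69, limma adjusted p = 0.0095) and the trefoil peptide Tff3 (-1.22 ± 0.59, adjusted p = 0.0065), against 1.41% of all probes. Neither was 2-fold lower with median-centered signals (-0.90 and -0.41) or with normexp and loess (-0.10 for both). The red signal of both was well above background on 0 of 8 arrays, and the median of the list was -0.06 (0.58 with median-centered signals). Among markers with clear red signal, Lyz1 had a mean of 0.42 ± 0.35 (limma adjusted p = 0.0436, 7 of 8 mice above 0; 0.045 with median-centered signals and -0.007 with normexp and loess), Anpep -0.24 ± 0.20 (adjusted p = 0.0474; 0.20 with normexp and loess) and Sis 0.18 ± 0.75 (adjusted p = 0.64). For 8 markers (Cdx1, Cdx2, Apoa4, Guca2b, Lgr5, Olfm4, Mep1b and Lct) neither dye was well above background on any array, among them both caudal factors that define intestinal epithelium. The list's summed red signal ran from 13830 to 26010 and its summed green signal from 18392 to 24915.

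Among 6182 other genes with red signal well above background on all 8 arrays, those with the most similar pattern across mice were found by Pearson's r, as a description of 8 points that share the pool. Nearest to Reg2 were the ubiquitin ligase Wwp1 (r = 0.96), the protease Prss23 (0.95) and Gcat (0.95). Nearest to Reg3g were the cytokine-induced inhibitor Cish (0.94), the kinase Map3k1 (0.93) and Foxj2 (0.88). Nearest to Reg3b were Sf3b3, Slc39a7 and Vps54 (0.90, 0.89 and 0.88), and nearest to Reg3a were Prelid3b, Meis2 and D10Bwg1070e (0.88, 0.87 and 0.87). For Reg3d they were C1qbp, Cldn7 and Nceh1 (0.97, 0.93 and 0.93), and for Reg1 they were Yaf2, Ric1 and the growth factor Igf1 (0.95, 0.94 and 0.94). None of these 18 genes passed the test of fold and p. Their ranges were far narrower than those of Reg2, as with Wwp1, which had a mean of -0.09 ± 0.19 (SD, n = 8).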

How the data were processed

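RNA of 8 NOD pancreata, 1 per array, was compared with 1 NOD.B10 pool on Agilent two-color 4×44K arrays. Scans had been read by the authors, per the file headers, with version 10.7.3.1 of Agilent's Feature Extraction, and probe positions are on mm8. The deposited files hold the log10 ratio of red over green per spot. The deposited intensity values of each dye are a processed intensity, which the authors' software made by background subtraction and dye normalization, and a background-subtracted intensity. They also hold flags, and the deposited stand-in markers, treated as a score, tell where a signal was replaced because it was too low.

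Ratios were put on the log2 scale from the deposited log10 values. The test ran on 28105 probes that have a symbol and reach 25 in red processed signal on 4 or more of the 8 arrays. It was limma's one-sample test against 0 (limma 3.58.1 and the data.table package, 1.17.8, under R 4.3.3), with calls at 2-fold and an adjusted p below 0.01 (Benjamini-Hochberg). The code was tested on simulated data. Single genes were tested with all 256 sign flips, slides with 70 splits of 4 against 4 (slides from the barcodes in the headers, also kept as a batch), and relations by exactly permuting the pairings. All 8 arrays form 1 group and numbers only name mice. The labels do not say more on litters or cages. Tests of a mean ratio set it against the spread over these 8 arrays, which holds mouse and array differences together. The error of the 1 pool and of the dye is not in that spread. Tables and plots were made in Python 3.11.15 (pandas 2.3.3, numpy 2.4.6, matplotlib 3.10.9, scipy 1.17.1).

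Named are all 7 Reg genes, from each list the called genes and the 3 furthest from 0 with red well above background on at least 4 arrays, and the 3 genes most alike to each Reg gene; others are said to be named after their values were seen, or serve as standard markers. Members and lists were chosen with earlier results of these data known. Alternatives were other statistics, filters, ratios, normalizations, weights, slides and thresholds, and each array left out; the arrays with grids rated as good were added after seeing the data. Genes were matched by RefSeq accession, symbol or a unique older symbol. Array number limits the precision. Probe and protein sequences were not used here.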

Additional observations from a re-analysis of the deposited data

How the results depend on the processing

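The number of Reg genes passing as lower was 1 in the main analysis. With the share of all probes passing as lower in brackets, it was 4 with the ratio of processed signals (2.46%), with median-centered signals (4.53%), with probes filtered on red well above background (0.347%), and with an adjusted p of 0.05 (2.71%). It was 2 with a limit of 1.5-fold (2.87%), with array quality weights (1.58%) and with slide as a covariate (1.62%). It was 0 on slide 1 alone (0%), on slide 2 alone (0.00356%) and on the 5 arrays with grids rated as good (0.125%), a choice made after seeing the data. Leaving out 1 array gave 0 to 2 (0 without mouse 3 or mouse 4, with 0.672% and 0.69% of probes, and 2 without mouse 7, with 0.961%). With fewer arrays or fewer probes the adjustment differs by construction; otherwise the cause was not tested. The count was 1 with the plain statistic (0.865%), no signal filter (0.973%), irregular spots left out (1.41%), and normexp with loess (0.0818%). Signs of the means held for Reg2, Reg3a, Reg3b, Reg3d and Reg3g under each alternative that changes the ratio, the weights or the arrays, while the other alternatives leave the mean as it is. Reg1 turned to 0.40 with normexp and loess. The slide difference of Reg3g (-0.15) turned to 0.11 with normexp and loess, and ranged from -0.71 to 0.09 with 1 array left out (0.093 without mouse 1, 0.091 without mouse 5 and 0.037 without mouse 8). The number of Reg genes that differed by slide was 0 throughout, and the number of pairs of Reg genes that passed across mice was 4 as deposited, 4 with median-centered signals and 3 with normexp and loess. Each gene has 1 probe, so other probes could not be tried. No paired analysis was possible because the arrays form 1 group against 1 pool. Weak red signal limits what can be said of Reg4 and of the cytokines.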
